A study of Mus musculus with 6 samples.

Results

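The heat shock chaperones described here are 9 genes, Hspa1a, Hspa1b, Dnajb1, Dnaja1, Hsp90aa1, Hsph1, Hspe1, Hspd1 and Hspa8, found by symbol among the 32285 genes of each deposited count matrix. They were measured by 5′ single-cell RNA sequencing in live CD45+ leukocytes that had been sorted from MC38 tumours, a mouse colon adenocarcinoma line grown under the skin of mice, at day 25 after inoculation. The 3 cko samples came from mice in which Ctcf, which encodes a chromatin loop and boundary protein, was deleted in regulatory T (Treg) cells by a tamoxifen-inducible knockout. The 3 ctr samples came from mice with wild-type Ctcf in their Treg cells, and the tumour cells were wild type in both groups. The labels call the samples biological replicates, and they do not give the driver of the recombinase, the age of the mice, whether ctr mice received tamoxifen, or how each tumour was dissociated.

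Heat shock proteins bind unfolded polypeptides and keep them from aggregating. Hspa1a and Hspa1b encode the inducible Hsp70 proteins, Dnajb1 and Dnaja1 encode J-domain partners that hand clients to Hsp70 and stimulate its ATPase, and Hsph1 encodes an Hsp110 protein that exchanges its nucleotide. Hsp90aa1 encodes the inducible cytosolic Hsp90, Hspd1 and Hspe1 the chaperonin and co-chaperonin of mitochondria, and Hspa8 the constitutive Hsp70. Heat, oxidants and misfolded protein release heat shock factor 1, which binds repeats of the pentamer NGAAN in promoters and induces the inducible members within minutes, and in single-cell work these genes and immediate early genes are also known to be induced while tissue is dissociated.

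The libraries held 45322797 to 53473461 UMIs (unique molecular identifiers, 1 per captured transcript) in cko and 54224947 to 55515267 in ctr. Cells kept after filtering numbered 5827 to 6546 per cko library and 5574 to 6852 per ctr library, with median counts of 5135 to 6292 and 6147 to 7920 UMIs. Cells were clustered without the chaperones and immediate early genes, clusters were named from marker genes, and 6 classes had at least 20 cells in every library: Treg, conventional CD4 T, CD8 T, natural killer (NK), monocyte or macrophage, and conventional dendritic (cDC) cells. These names mean "like" the class. Foxp3, the defining Treg transcription factor, stood at 88.6 to 93.6 CPM (UMIs of a gene per 1000000 UMIs of the class sum) in Treg cells of cko and 69.6 to 83.1 CPM in those of ctr, against 2.85 to 7.82 CPM and 11.2 to 17.4 CPM in conventional CD4 T cells. Ctcf in Treg cells averaged 57.4 ± 3.96 CPM in cko and 80.5 ± 10.1 CPM in ctr (SD, n = 3 each), a log2 change of -0.56 (SE 0.13, edgeR adjusted p = 0.0167). The T cells of cko replicates 1 and 3 shared 197 receptor clonotypes, held by 82.0% and 69.8% of their receptor-bearing cells, while other library pairs shared at most 3. These libraries are therefore not shown to be independent, and counts of calls are also given with them added together as 1 sample. Between 41 and 81 cell barcodes were shared by any pair of libraries.

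The promoters are shown first, because the inducible members moved together across libraries and are textbook targets of heat shock factor 1. RefSeq promoter windows of GRCm38.p6, 250 bases before to 50 after an annotated start, were matched by symbol for 7 of 9 members (Hspa1a, Hspa1b, Dnajb1, Dnaja1, Hsph1, Hspe1 and Hspd1). The 250 upstream bases were searched on both strands for 2 inverted pentamer cores, written GAANNTTC or TTCNNGAA, each of which reads the same on both strands. At least 1 of them was present in 12.8% of 32851 promoter windows, and 3 cores in alternation, TTCNNGAANNTTC or GAANNTTCNNGAA, in 0.466%. Capitals mark the matches. The upstream sequences of Hspa1a (minus strand, chr17:34972157-34972406) and Hspa1b (minus strand, chr17:34959239-34959488) are given whole, because they differ at only 3 of 250 bases.
Hspa1a: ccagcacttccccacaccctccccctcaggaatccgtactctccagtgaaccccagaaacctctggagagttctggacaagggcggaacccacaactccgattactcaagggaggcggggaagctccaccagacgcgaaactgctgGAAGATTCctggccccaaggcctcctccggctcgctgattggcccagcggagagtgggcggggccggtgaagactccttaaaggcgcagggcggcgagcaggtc
Hspa1b: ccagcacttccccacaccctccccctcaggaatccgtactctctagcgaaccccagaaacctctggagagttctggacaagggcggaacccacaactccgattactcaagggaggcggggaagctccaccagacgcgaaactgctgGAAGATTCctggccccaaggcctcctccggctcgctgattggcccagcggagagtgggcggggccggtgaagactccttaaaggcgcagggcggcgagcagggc

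For the other members with a match, 80 bases around it are given, to show how the cores are arranged. The Hspe1 stretch (plus strand, chr1:55088038-55088117) holds 3 overlapping matches, and the same stretch lies upstream of 1 of the 2 annotated starts of Hspd1, which is read from the opposite strand. The Hsph1 stretch (minus strand, chr5:149636337-149636416) and the Dnaja1 stretch (plus strand, chr4:40722308-40722387) hold 1 match each. The windows of Dnajb1, on chromosome 8, held none of these letters.
Hspe1: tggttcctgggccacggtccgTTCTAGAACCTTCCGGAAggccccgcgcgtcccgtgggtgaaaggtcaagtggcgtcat
Hsph1: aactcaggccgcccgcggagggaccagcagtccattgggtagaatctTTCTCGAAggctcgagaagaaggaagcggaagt
Dnaja1: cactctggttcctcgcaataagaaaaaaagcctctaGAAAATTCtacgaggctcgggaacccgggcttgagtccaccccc

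For both inducible Hsp70 genes, all 3 cko libraries lay below all 3 ctr libraries in all 6 classes. Hspa1a (chr17:34969190-34972156, 1 exon) had 736, 727 and 810 CPM in conventional CD4 T cells of cko replicates 1 to 3, against 1883, 1871 and 3740 CPM in those of ctr replicates 1 to 3. In Treg cells it had 825, 743 and 924 CPM in cko, against 1231, 1496 and 2798 CPM in ctr. In both classes the groups did not overlap, and ctr replicate 3 stood far above the other libraries. In monocytes and macrophages Hspa1a had 550, 422 and 583 CPM in cko, against 942, 1375 and 1953 CPM in ctr. In cDC it had 555, 752 and 727 CPM in cko, against 1313, 1367 and 1989 CPM in ctr. These myeloid classes separated the groups in the same way, again with ctr replicate 3 on top. In CD8 T cells Hspa1a had 698, 277 and 644 CPM in cko, against 955, 1157 and 2041 CPM in ctr. In NK cells it had 684, 318 and 510 CPM in cko, against 793, 700 and 1120 CPM in ctr. The gap was narrowest in NK cells, between cko replicate 1 and ctr replicate 2, and cko replicate 2 was the lowest library of both cytotoxic classes.

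The fitted change of Hspa1a, as log2 of cko over ctr, ran between -1.70 (SE 0.28) in conventional CD4 T cells and -0.87 (SE 0.36) in NK cells. It passed the threshold of 0.05 in monocytes and macrophages (-1.39, SE 0.27, edgeR adjusted p = 0.0151) and in cDC (-1.16, SE 0.18, adjusted p = 0.00766). It did not pass in conventional CD4 T (adjusted p = 0.0895), Treg (0.130), CD8 T (0.205) or NK cells (0.360). Hspa1b (chr17:34956436-34959238, 1 exon) gave estimates between -1.61 (SE 0.23) in conventional CD4 T cells and -0.80 (SE 0.35) in NK cells, and was called lower in conventional CD4 T cells (adjusted p = 0.0482), monocytes and macrophages (-1.53, SE 0.27, 0.0107) and cDC (-1.14, SE 0.19, 0.00948).

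Hspa1a and Hspa1b are near-identical copies, so their separate counts are uncertain. Of 90-base windows in the first 1000 bases of the Hspa1a transcript in GENCODE vM21, 77.3% occur unchanged in Hspa1b. The ratio of Hspa1b to Hspa1a UMIs nevertheless differed between cell types, at 0.55 to 0.80 in the 6 cko and 0.64 to 0.77 in the 6 ctr sums of myeloid classes, against 1.00 to 1.23 in the cko and 0.92 to 1.17 in the ctr sums of lymphoid classes. Gm20481 is annotated on the opposite strand within Hspa1a (chr17:34969912-34972136), and reads of the 2 cannot be told apart where counting ignores strand. It held few UMIs, for example 22 in Treg cells of all cko libraries and 126 in those of all ctr libraries. These raw counts are not adjusted for depth, as the Treg sums held 1320320 to 1608630 UMIs per cko library and 3910537 to 4904211 per ctr library.

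**Figure D1:**
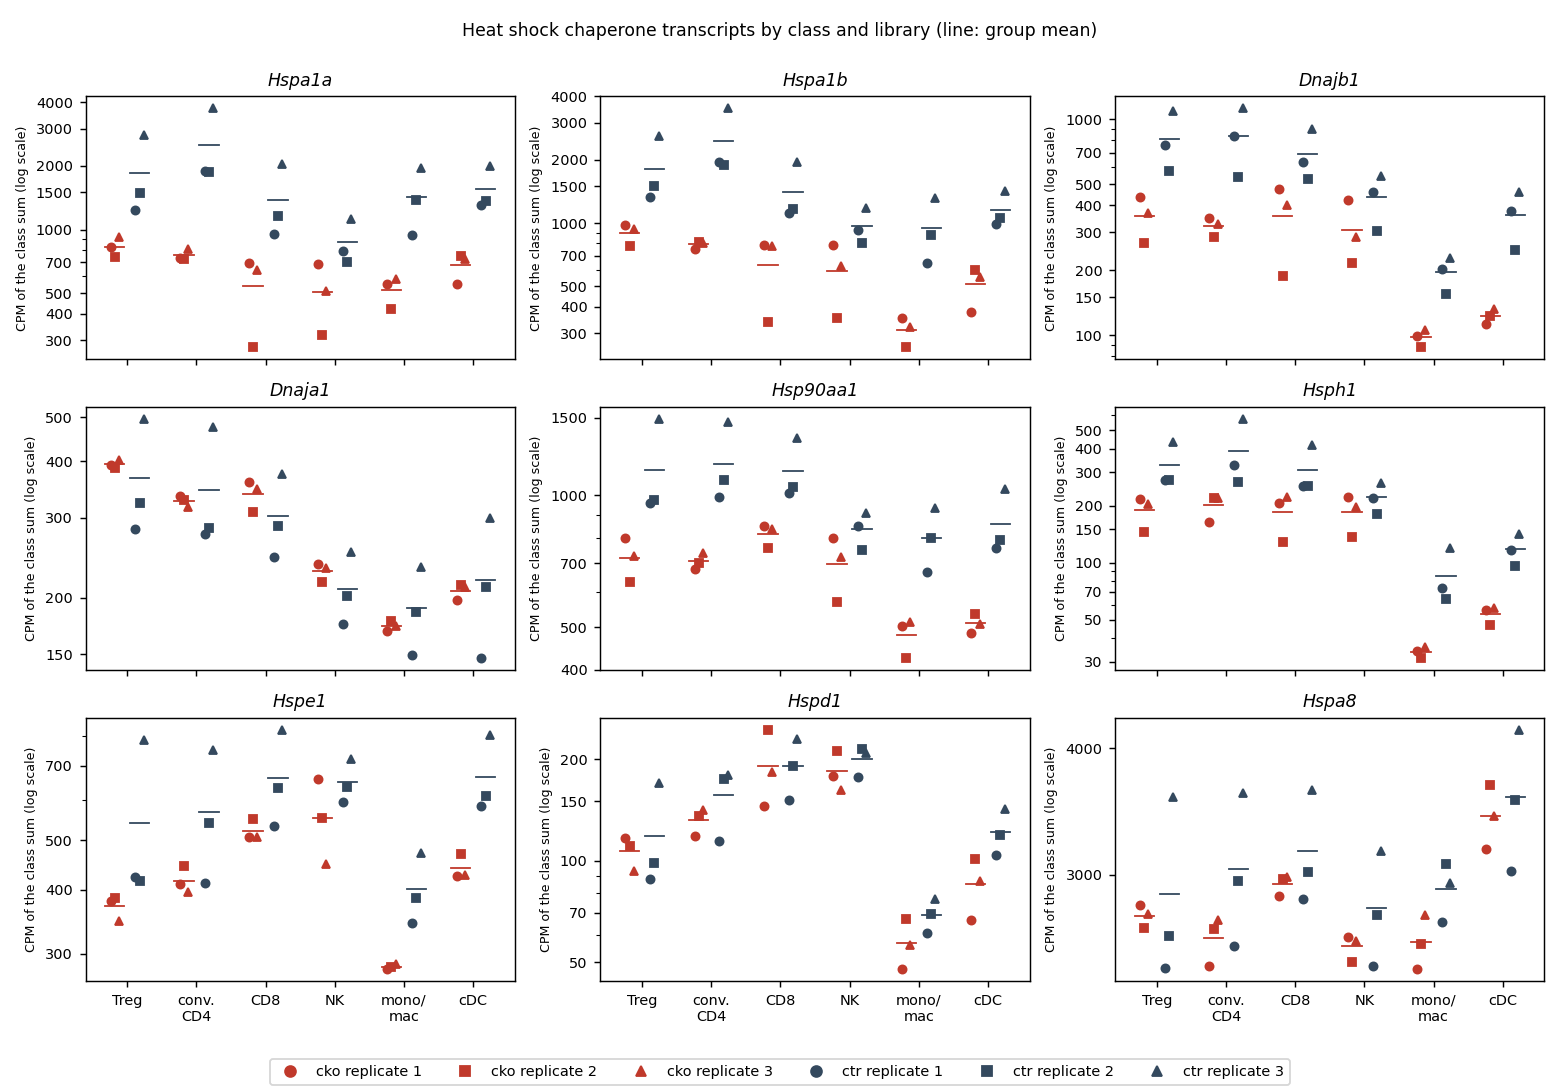
Level of each member (CPM of the summed counts of a class, log axis) in each class and library, cko left of ctr, with symbols for replicates and a line at the group mean. For Hspa1a and Hspa1b all 3 cko libraries lie below all 3 ctr libraries in each class, ctr replicate 3 is on top, and Dnaja1 and Hspa8 overlap between groups in each class.

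Dnajb1 (chr8:83608193-83612653), the J-domain partner of inducible Hsp70, showed the same arrangement. It had 112, 123 and 132 CPM in cDC of cko, against 375, 247 and 458 CPM in cDC of ctr, and 99.0, 87.9 and 106 CPM in monocytes and macrophages of cko, against 203, 155 and 228 CPM in those of ctr. In conventional CD4 T cells it had 350, 285 and 325 CPM in cko, against 837, 542 and 1121 CPM in ctr. The groups did not overlap in 5 of 6 classes, NK cells being the exception with 421, 217 and 284 CPM in cko against 461, 304 and 544 CPM in ctr. The log2 change was -1.50 (SE 0.22, adjusted p = 0.00678) in cDC and -0.94 (SE 0.15, 0.0028) in monocytes and macrophages, where the gene was called lower, and it was -1.37 in conventional CD4 T (adjusted p = 0.102), -1.24 in Treg (0.0907), -0.97 in CD8 T (0.269) and -0.59 in NK cells (0.527), where it was not called.

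Hsph1 (chr5:149614287-149636376) was the only member to pass the joint test of unequal differences among classes, described below, where 19.0% of all tested genes passed. It had 34.3, 31.2 and 35.8 CPM in monocytes and macrophages of cko, against 73.3, 63.9 and 119 CPM in those of ctr, and 56.0, 46.7 and 57.3 CPM in cDC of cko, against 116, 96.4 and 142 CPM in cDC of ctr. In Treg cells it had 218, 145 and 204 CPM in cko, against 274, 274 and 434 CPM in ctr. In NK cells the groups overlapped, with 222, 136 and 198 CPM in cko against 218, 182 and 263 CPM in ctr. It was called lower in monocytes and macrophages (log2 -1.27, SE 0.23, adjusted p = 0.00879) and in cDC (-1.09, SE 0.17, 0.00636), and the estimate in NK cells was -0.34 (SE 0.20, adjusted p = 0.486).

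Hsp90aa1 (chr12:110690605-110702728) differed by less, but with a smaller spread, and was called lower in 4 classes. In conventional CD4 T cells it had 677, 702 and 739 CPM in cko, against 990, 1083 and 1467 CPM in ctr (log2 -0.72, SE 0.14, adjusted p = 0.0482). In Treg cells it had 796, 632 and 725 CPM in cko, against 960, 975 and 1490 CPM in ctr (-0.73, SE 0.17, 0.0371). These were the only lymphoid classes in which it passed, and neither call was kept with cko replicates 1 and 3 added together. In monocytes and macrophages it averaged 480 ± 48.4 CPM in cko and 799.9 ± 132 CPM in ctr (-0.67, SE 0.12, 0.00574), and in cDC 510.0 ± 25.8 CPM in cko and 861 ± 152 CPM in ctr (SD, n = 3 each; -0.71, SE 0.13, 0.00882). In CD8 T (-0.49, adjusted p = 0.115) and NK cells (-0.34, 0.204) it was not called.

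Of the mitochondrial pair, 1 gene was called lower and the other was not, and a difference between them was not tested. Hspe1 (chr1:55088132-55091307), the co-chaperonin, had 280, 283 and 286 CPM in monocytes and macrophages of cko, against 344, 385 and 473 CPM in those of ctr, and 426, 471 and 428 CPM in cDC of cko, against 584, 611 and 804 CPM in cDC of ctr. It was called lower in both (log2 -0.44, SE 0.11, adjusted p = 0.0176, and -0.55, SE 0.13, 0.0246). Hspd1 (chr1:55077835-55088243), the chaperonin itself, was called in no class, with estimates between -0.47 (SE 0.15, adjusted p = 0.0786) in cDC and -0.02 (SE 0.21, 0.984) in CD8 T cells. In CD8 T cells it averaged 191 ± 49.7 CPM in cko and 191 ± 39.1 CPM in ctr. In cDC all 3 cko libraries lay below all 3 ctr libraries for Hspd1, at 85.1 ± 17.6 CPM and 122 ± 19.3 CPM. After class means were removed, Hspe1 and Hspd1 correlated at r = 0.78 across the 36 class and library sums. The genes lie head to head, and their annotated spans overlap at the starts.

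Hspa8 and Dnaja1 overlapped between the groups in every class. Hspa8 (chr9:40800984-40810087) had 2799, 2659 and 2745 CPM in Treg cells of cko, against 2427, 2609 and 3581 CPM in those of ctr, and its estimates ran between -0.21 (SE 0.12, adjusted p = 0.606) in conventional CD4 T cells and -0.01 (SE 0.11, 0.951) in cDC. Dnaja1 (chr4:40722150-40737149) had 393, 386 and 402 CPM in Treg cells of cko, against 283, 323 and 496 CPM in those of ctr. In all 6 classes ctr replicate 3 had the most Dnaja1 and ctr replicate 1 the least, so that the cko libraries lay inside the range of ctr. Its estimates ran between -0.07 (SE 0.19) in conventional CD4 T cells and 0.15 (SE 0.15) in CD8 T cells, with an adjusted p of at least 0.692.

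Counted over classes, 15 of 54 tests of a member in a class were called lower in cko and none higher, and 51 of the 54 estimates were negative. In monocytes and macrophages 6 of 9 members were called lower, where 11.0% of all 11395 tested genes were. In cDC it was 6 of 9, against 5.01% of 10029 genes. In Treg cells only Hsp90aa1 was called lower, against 3.10% of 9673 genes, and in conventional CD4 T cells Hspa1b and Hsp90aa1 were, against 0.0869% of 9206 genes. No member was called in CD8 T cells, where 0.590% of 11872 genes were lower, or in NK cells, where 0.616% of 9422 genes were. At an unadjusted p under 0.05, 6 members passed in CD8 T cells, where 1863 of 11872 genes did, and 1 in NK cells, where 1444 of 9422 genes did. With DESeq2 3 members were called in CD8 T cells, where 453 genes were, and 0 in NK cells. With cko replicates 1 and 3 added together, 4 members were called in monocytes and macrophages (1514 genes), 5 in cDC (443 genes) and none in the 4 lymphoid classes (5 to 372 genes). Without ctr replicate 3, the highest library, the counts were 5 in monocytes and macrophages (1483 genes), 6 in cDC (715 genes), 4 in Treg, 2 in conventional CD4 T and none in CD8 T (7 genes) and NK cells (54 genes). With any 1 library left out, 316 to 676 genes were called in Treg and 3 to 164 in conventional CD4 T cells. The Treg call of Hsp90aa1 was lost without any 1 of the 3 cko replicates or without ctr replicate 1. In conventional CD4 T cells the count was 0 without cko replicate 1, cko replicate 3 or ctr replicate 1, 1 without cko replicate 2 and 4 without ctr replicate 2. All genes called in these fits numbered 3, 8, 14, 164 and 74, in that order. Among monocytes and macrophages Hspa1a lost its call without cko replicate 1, and Hspe1 without cko replicate 1, cko replicate 3 or ctr replicate 3. In cDC Hsp90aa1 and Hspe1 lost theirs without cko replicate 1 or cko replicate 3. Dnajb1, Hspa1b and Hsph1 kept their calls in both myeloid classes whichever library was left out.

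Separation of the libraries was more even among classes than the calls were. All 3 cko sums lay below all 3 ctr sums for 6 of 9 members in Treg (9.55% of all tested genes), 5 in conventional CD4 T (8.72%), 5 among CD8 T cells (9.74%), 2 among NK cells (6.23%), 6 for monocytes and macrophages (26.0%) and 7 for cDC (18.4%). The reverse arrangement occurred for no member. The median log2 change of the 9 members was -0.73 in Treg, -0.72 in conventional CD4 T, -0.49 in CD8 T and -0.34 in NK cells; it was -0.67 among monocytes and macrophages and -0.71 for cDC, beside medians of all tested genes between -0.02 and 0.01.

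**Figure D2:**
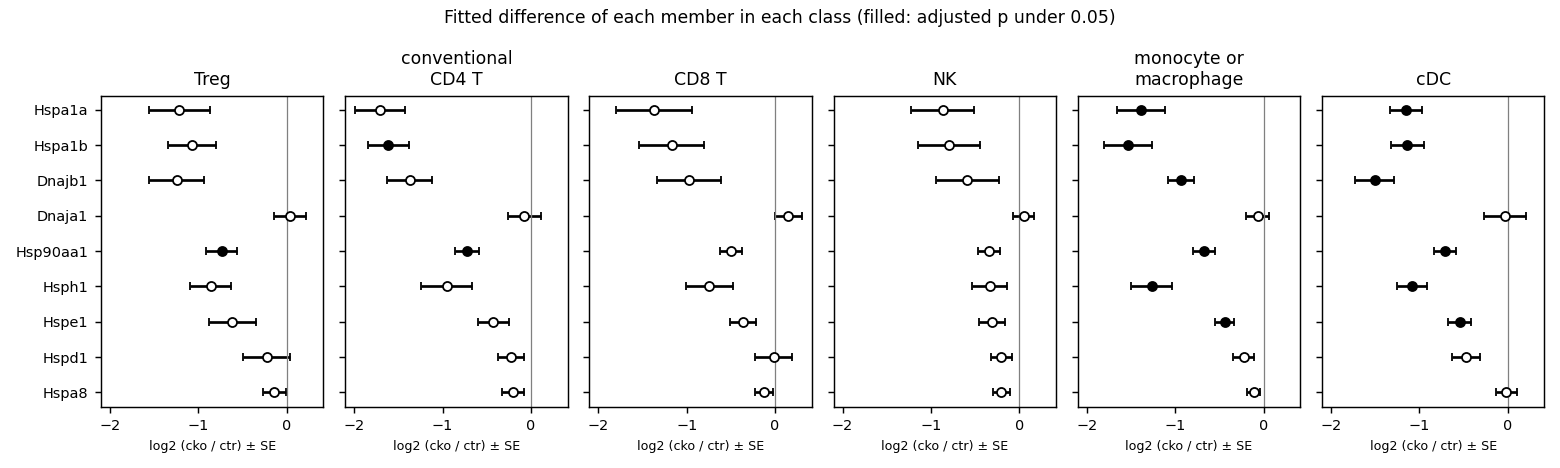
Fitted log2 change of each member (cko over ctr, bars are 1 standard error) in each class, with filled points where the edgeR adjusted p is under 0.05. Hspa1a, Hspa1b, Dnajb1 and Hsph1 lie farthest to the left in most classes, Dnaja1 and Hspa8 lie near 0, and the 15 filled points fall in 4 of the 6 classes.

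Whether the difference between genotypes was unequal among classes was tested in 1 fit over all 36 sums, with the library as a block, so that a shift common to all classes of a library drops out. Of the members, Hsph1 passed (F = 4.90, adjusted p = 0.0201), where 19.0% of 12542 genes passed. Its change in NK cells was less negative than the mean of the other 5 classes by 0.61 (SE 0.15, adjusted p = 0.0492, where 0.965% of genes passed), and in monocytes and macrophages it was more negative by a log2 difference of -0.47 (SE 0.15, adjusted p = 0.0494, where 9.81% passed). The members next to Hsph1 were Hsp90aa1 (adjusted p = 0.0686) and Dnajb1 (0.0753), and Hspa1a (0.469) and Hspa1b (0.410) stood far from the threshold. The Hsph1 call was not kept with cko replicates 1 and 3 added together, without either of these replicates, or without ctr replicate 2 or 3. Without cko replicate 2, 4 members passed. With any 1 library left out, 1047 to 2725 genes passed. For the other 8 members, a call in 1 class and none in another is thus not shown to be a difference between those classes.

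The classes hold several clusters whose shares differed between the groups, so the sum of Hspa1a, Hspa1b and Dnajb1 was also taken within clusters of at least 20 cells in every library. Its mean was lower in cko in 15 of 15 such clusters, and the groups did not overlap in 11. These clusters come from the same 6 libraries, so they are not separate observations, and no such count was made over all genes. Some clusters fell short of 20 cells in a library. CD8 T cluster T8 had 1555, 637.8 and 1675 CPM in cko and 1463 and 883.5 CPM in ctr replicates 1 and 2. Macrophage cluster 20 had 1950 and 1889 CPM in cko replicates 1 and 3 and 1828 to 2614 CPM in ctr. Treg cluster T22 had 2340 and 3129 CPM in those cko replicates and 4896 to 10732 CPM in ctr. Conventional CD4 T cells split into T15, led by genes such as S1pr1, Klf2 and Tcf7, known from resting and central memory cells, and T3, led by genes such as Il13, Tnfsf11 and Csf2, known from effector helper cells. T15 held 2283 to 3707 CPM in cko and 6344 to 12138 CPM in ctr, and T3 held 1459 to 1586 CPM in cko and 2931 to 3303 CPM in ctr. T15 made up 35.8% of the class in cko and 63.4% in ctr. In monocytes and macrophages the Arg1 and Nos2 expressing cluster 0 held the least, at 401 to 524 CPM in cko and 704 to 1236 CPM in ctr, and made up 68.9% and 33.4% of the class. Cluster 2, led by Apoe and C1qb, held 1627 to 2387 CPM in cko and 2589 to 5174 CPM in ctr.

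Clusters of CD8 T cells also differed in level. Cluster T9 held 277 to 998 CPM in cko and 1211 to 1806 CPM in ctr, whereas T12, which has the small heat shock gene Hspb1 among its leading genes, held 3901 to 6391 CPM in cko and 4403 to 8614 CPM in ctr. T5, led by interferon-induced genes such as Ifit1 and Isg15, held 2632 to 4162 CPM in cko and 5075 to 10856 CPM in ctr. T12 made up 5.19% of the class in cko and 25.0% in ctr. T12, T11 and T7 were the CD8 T clusters in which the groups overlapped, and with the NK cluster T21 they account for the 4 clusters without separation. The part of cluster make-up in the class differences was not tested.

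**Figure D3:**
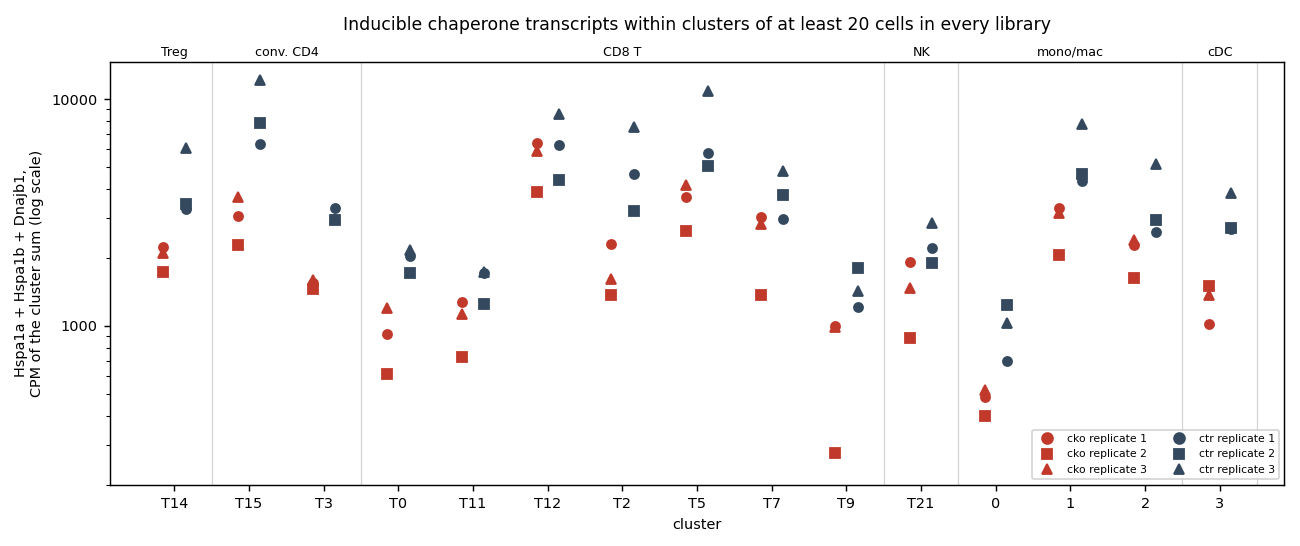
Summed Hspa1a, Hspa1b and Dnajb1 (CPM, log axis) within each of 15 clusters and each library, grouped by class, cko left of ctr, with symbols for replicates. The cko mean lies below the ctr mean in each cluster, and among CD8 T clusters T12 is the highest in cko and T9 the lowest.

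Single cells were then thinned to 2000 UMIs each, which left out 3585 cko and 2445 ctr cells below that depth. Cells with at least 3 UMIs of Hspa1a, Hspa1b and Dnajb1 together made up 35.9 ± 4.96% of conventional CD4 T cells in cko and 65.9 ± 6.20% in ctr (SD, n = 3 each). They made up 35.2 ± 1.42% of Treg cells in cko and 54.1 ± 6.11% in ctr, 27.9 ± 7.32% of CD8 T cells in cko and 55.0 ± 7.36% in ctr, and 36.6 ± 11.6% of NK cells in cko and 54.9 ± 4.67% in ctr. In monocytes and macrophages they made up 18.8 ± 0.70% in cko and 41.2 ± 9.58% in ctr, and in cDC 23.8 ± 4.84% in cko and 53.9 ± 4.36% in ctr. The groups did not overlap in any of the 6 classes. With 3 libraries a side, an exact permutation test of a single share cannot go below p = 0.1, and none was made.

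The 10% of cells with the most UMIs of these 3 genes, ranked without thinning, held a larger mean share of them in cko than in ctr in each of the 6 classes. This share also depends on the depth of the cells and on how sparse the counts are, and was adjusted for neither. They held 58.6 ± 5.25% of the 3 genes' UMIs in Treg cells of cko and 44.7 ± 5.80% in those of ctr, and 68.6 ± 3.29% in monocytes and macrophages of cko and 51.9 ± 5.96% in those of ctr. In NK cells, where the share was lowest, they held 45.0 ± 2.70% in cko and 37.4 ± 2.05% in ctr. Cells with at least 1 Hspa1a UMI made up 34.7 ± 4.18% of thinned conventional CD4 T cells in cko and 62.0 ± 8.08% in ctr, and 44.8 ± 4.99% and 71.0 ± 5.99% without thinning. Neutrophils, which held the least of these transcripts, were set beside them for free RNA, although they are not known to lack the gene. Of their thinned cells 8.48%, 12.1% and 2.22% had an Hspa1a UMI in cko and 8.57% in ctr replicate 1, at median depths of 2121 to 3507 UMIs in cko and 2906 UMIs in that ctr library. The other ctr libraries had 4 and 18 neutrophils, too few for this share. The class means lie above these 4 values, at greater median depths of 4061 to 15754 UMIs before thinning.

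**Figure D4:**
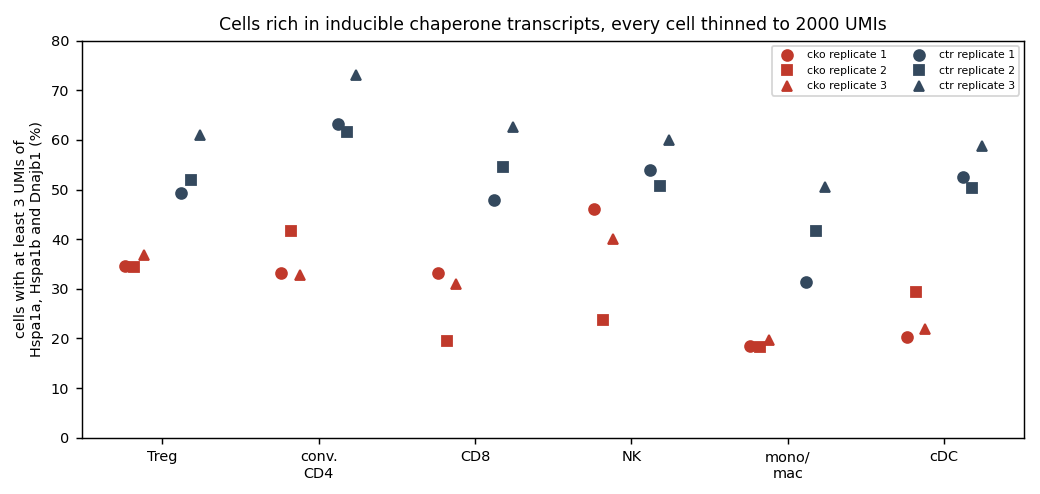
Share of cells with at least 3 UMIs of Hspa1a, Hspa1b and Dnajb1 (%), after each cell was thinned to 2000 UMIs, by class and library, cko left of ctr. In each class the 3 cko libraries lie below the 3 ctr libraries, and ctr replicate 3 is the highest.

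The highest library was mostly the same one across members and classes, and the lowest varied. Of 54 combinations of member and class, ctr replicate 3 was the highest library in 51, cko replicate 2 in 1 and ctr replicate 2 in 2. The lowest library was cko replicate 2 in 23, cko replicate 1 in 15, cko replicate 3 in 4 and ctr replicate 1 in 12. For Hspa1a, Hspa1b and Dnajb1, ctr replicate 3 was the highest in 18 of 18 and cko replicate 2 the lowest in 14. After the class means were removed, the log2 levels of Hspa1a, Hspa1b, Dnajb1, Hsp90aa1 and Hsph1 correlated with each other across the 36 sums at r between 0.92 and 0.99. The other members correlated with them less closely, Hspe1 at 0.76 to 0.89, Hspa8 at 0.50 to 0.69, Hspd1 at 0.36 to 0.58 and Dnaja1 at 0.18 to 0.34. Sums of 1 library share its preparation and depth, so these values describe the libraries and carry no p.

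Immediate early genes, which encode short-lived transcription factors and feedback regulators and are induced quickly by many stimuli, were summed beside the chaperones as a list of 27. In Treg cells the list held 14504, 13179 and 14347 CPM in cko, against 16708, 13100 and 17731 CPM in ctr. In conventional CD4 T cells it held 13357, 12012 and 12987 CPM in cko, against 15299, 11205 and 16884 CPM in ctr. Here ctr replicate 2 had the least of this list while its Hsp70 transcripts were above those of each cko library. Groups did not overlap only in monocytes and macrophages, at 24247 to 27855 CPM in cko and 31052 to 32062 CPM in ctr. Cells with at least 3 UMIs of Hspa1a, Hspa1b and Dnajb1 had more immediate early transcripts than cells with none in 18 of 18 class and library combinations of cko and 14 of 18 of ctr. In ctr this held for 3 of 3 libraries in each lymphoid class, but for 1 of 3 in monocytes and macrophages and 1 of 3 in cDC. These combinations come from the same 6 libraries and are not separate observations. Over all kept cells, the chaperone-rich cells had more in each cko library but fewer in each ctr library, for example 16624 against 17998 CPM in ctr replicate 1. The part of cluster make-up in this was not tested. Jun and Fos were among the genes closest to the 3 chaperones after class means were removed (r = 0.91 and 0.85).

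**Figure D5:**
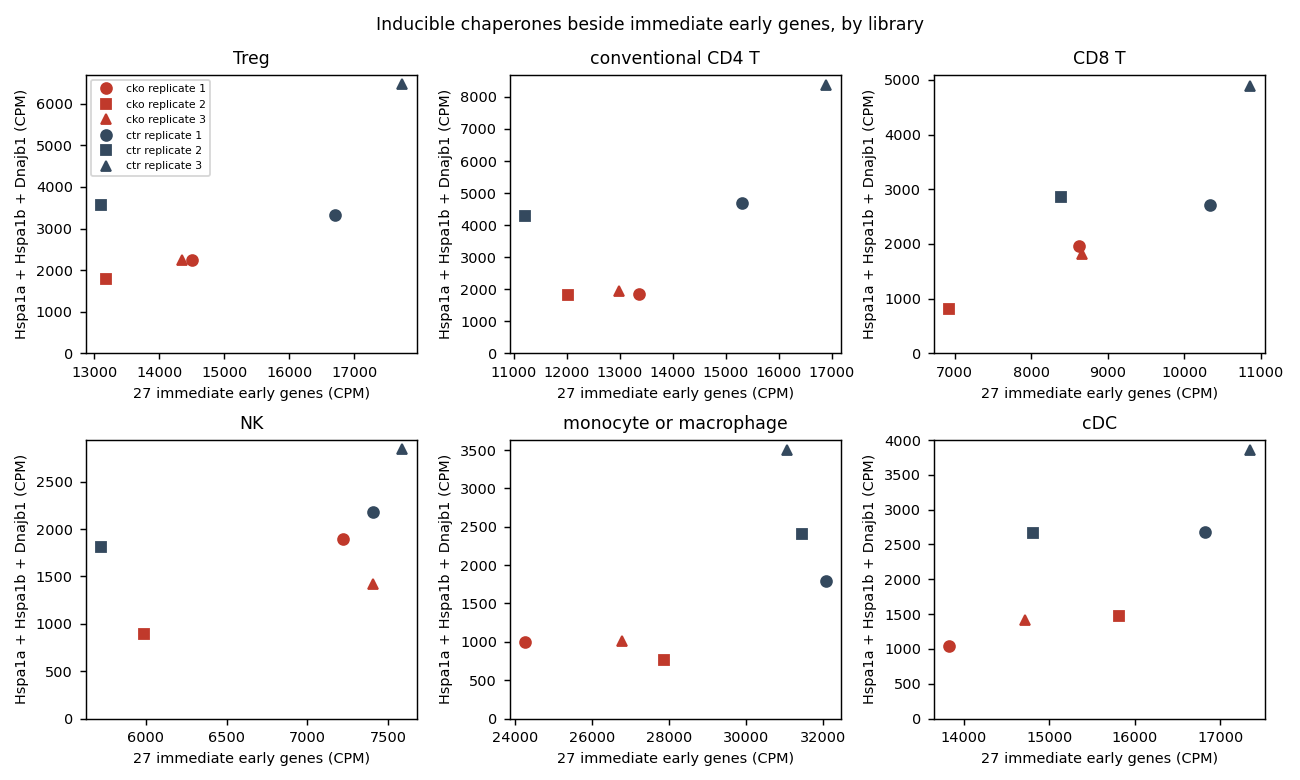
Summed Hspa1a, Hspa1b and Dnajb1 (CPM, vertical axis) against the summed 27 immediate early genes (CPM, horizontal axis, not starting at 0) in each library, 1 panel per class, cko in red and ctr in dark blue. In Treg, conventional CD4 T and NK cells ctr replicate 2 lies at the left with the least immediate early transcripts, while ctr replicate 3 lies at the upper right in each class but monocytes and macrophages.

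Of the 27 immediate early genes, 3 were called higher and 9 lower in monocytes and macrophages of cko, 4 higher and 5 lower in cDC, and 2 higher and 3 lower in Treg cells, while none was called in the other classes. The genes with the largest changes were Jun (log2 -0.95), Rhob (-0.69), Fos (-0.67) and Klf2 (-0.62) in monocytes and macrophages and Jun (-1.01) in cDC, where Cebpb (1.00) and Gadd45b (0.85) were higher and Egr1 (-0.67) lower. In Treg cells Dusp1 (-0.82), Dusp2 (-0.77) and Egr1 (-0.72) were lower and Socs3 (0.64) higher. For all tested genes, 11.8% were called higher in monocytes and macrophages, 6.94% in cDC, 3.99% in Treg, 0.732% in NK, 0.590% in CD8 T and 0.272% in conventional CD4 T cells. Median mitochondrial shares of kept cells were 0.87 to 1.07% in cko and 0.94 to 1.13% in ctr, and overlapped. Cells of low-UMI clusters made up 12.4%, 20.8% and 11.9% of cko libraries and 8.67%, 5.18% and 6.68% of ctr libraries. The part of tumour handling in the differences was not tested.

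In a list of 34 further cytosolic chaperones and heat shock factor targets, the median log2 change lay between -0.15 in conventional CD4 T and -0.04 in Treg cells. Bag3, a co-chaperone that links Hsp70 to autophagy, was called lower in 4 classes, at -1.59 (SE 0.27, adjusted p = 0.0143) in Treg, -1.81 (SE 0.25, 0.0346) in conventional CD4 T, -1.75 (SE 0.16, 0.000326) in monocytes and macrophages and -1.42 (SE 0.24, 0.0101) in cDC, and stood at -1.10 (adjusted p = 0.313) in CD8 T and -0.86 (0.286) in NK cells. In Treg cells Hspa4 (-0.50) was lower and Cdc37 (0.71) and Dnajb6 (0.42) were higher, 2 of 31 tested genes each way. In monocytes and macrophages 4 of 32 were higher, among them Dnajb2 (1.05), Slc5a3 (0.82) and Cdkn1a (0.74), and 3 lower. In cDC 3 of 29 were higher, led by Cdkn1a (1.17) and Dnajb2 (0.98), and 2 lower, Bag3 and Dnajc7 (-0.52). Hsp90ab1, the constitutive Hsp90, was the gene called in NK cells (-0.40, adjusted p = 0.04), and none was called in CD8 T cells.

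The compartment-specific lists held few calls. Of 18 endoplasmic reticulum chaperones, Pdia6 was higher in Treg cells (0.80), Canx in monocytes and macrophages (0.38) and in cDC (0.30), and Hsp90b1 (0.28) was higher and Herpud1 (-1.19) lower in monocytes and macrophages. Of the 8 subunits of the cytosolic chaperonin CCT, Cct5 was lower in monocytes and macrophages (-0.30) and in cDC (-0.39), and Cct7 in cDC (-0.36). Of 10 further mitochondrial chaperones and proteases, Hsd17b10 was lower in Treg cells (-0.62), and Hscb (-0.52), Dnaja3 (-0.52) and Clpp (-0.35) were lower and Hspa9 (0.37) higher in monocytes and macrophages. None of the genes of these 3 lists was called in conventional CD4 T, CD8 T or NK cells.

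Lists of other cells and of cycling also differed between the groups in some classes. Macrophage transcripts in Treg cells summed to 837 to 969 CPM in cko and 1137 to 1421 CPM in ctr, with 11 of 12 tested genes negative and 1 called lower. In conventional CD4 T cells they summed to 657 to 923 CPM in cko and 791 to 1120 CPM in ctr. Of 19 proliferation genes 13 were called lower in monocytes and macrophages and 13 in cDC, and 3 of 17 in Treg cells. Of 14 macrophage transcripts 9 were called lower and 1 higher in monocytes and macrophages themselves. In cDC the list lay the other way, at 7235 to 7982 CPM in cko and 3746 to 6298 CPM in ctr, with 2 of 14 estimates negative and 3 genes called higher, and Lyz2 stood at 1196 to 1447 CPM in cko and 304 to 847 CPM in ctr. Csf1r, a defining macrophage marker, stood at 0.76 to 4.07 CPM in Treg cells of cko and 1.43 to 4.09 CPM in those of ctr. In cDC Csf1r was higher in cko without overlap, at 169.0 to 183.9 CPM against 65.13 to 134.2 CPM in ctr. Flt3, a marker used to name cDC, lay the other way there, at 23.53 to 26.14 CPM in cko and 28.23 to 61.75 CPM in ctr. Treg marker genes were called lower for 3 of 9 in Treg and 2 of 9 in CD8 T cells, and 1 of 8 transcripts of red cells and tumour, Epcam, was called lower in cDC (log2 -1.68). The CD8 T class was itself mixed, because it held a cycling cluster, T0, with some CD4 T and Treg-like cells. In T0 Cd8a was detected in a fraction of 0.7 of cells, Cd4 in 0.27 and Foxp3 in 0.08. T0 made up 11.3% of the class in cko and 13.4% in ctr. The interferon cluster T5 was mixed too, with Cd8a detected in a fraction of 0.74 of cells and Cd4 in 0.15. T5 made up 9.06% of the class in cko and 10.5% in ctr. The part of RNA of other cells, of mixed clusters and of cycling in the members' differences was not tested.

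The 8 genes other than members whose log2 CPM was most like the summed Hspa1a, Hspa1b and Dnajb1 over the 36 sums were Gm20481 (r = 0.89), Bag3 (0.85), Gm8797 (0.80), Ubb (0.74), Mapre2 (0.70), Ndufs3 (0.68), Rfng (0.68) and Mat2a (0.68), out of 8253 compared. Gm20481 overlaps Hspa1a, as described above, and Ubb encodes polyubiquitin.

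Cells outside the 6 tested classes gave values only. Summed Hspa1a, Hspa1b and Dnajb1 in γδ T cells were 1859, 723 and 2663 CPM in cko, against 3773, 7414 and 9033 CPM in ctr, where the ctr sums rest on 13, 2 and 25 cells. Neutrophils had 242, 336 and 142 CPM in cko, against 461, 379 and 475 CPM in ctr. Plasma cells had 1365, 527 and 1261 CPM in cko, against 2003, 1194 and 2309 CPM in ctr. Low-UMI clusters, which stayed unnamed, had 4077, 2557 and 3621 CPM in cko, against 4172, 5437 and 6955 CPM in ctr. The groups overlapped in plasma cells and not in the others, and the ctr neutrophils numbered 51, 4 and 18.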

How the data were processed

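Per the submitters' processing notes, Cell Ranger 7.0.0 and the mouse build GRCm38 (mm10) were used; the matrices were deposited as whole UMI counts for each gene and barcode, and the deposited receptor tables hold UMI counts per contig. Whether the authors removed doublets or ambient RNA, and whether counting used strand, are not given in the sources used here. Barcodes were kept with at least 300 genes, 500 UMIs and at most 10% mitochondrial counts. Scrublet's own threshold marked 0.794% of barcodes, so the highest scores were removed at 0.8% per 1000 cells (2084 cells), which left 37340 of 41679. Cells were clustered in scanpy 1.11.5 (2000 variable genes, 30 components, 15 neighbours, Leiden resolution 1, and 1.5 within T and NK cells). Clusters under 0.333 of their samples' median UMI count stayed unnamed. Counts summed per sample and class were compared with edgeR 4.0.16 (TMM, filterByExpr, robust quasi-likelihood test, Benjamini-Hochberg over all tested genes, threshold 0.05), and with DESeq2 1.42.0 as an alternative. CPM values are shares of the class sum, unscaled. The fits were tested on simulated data with 200 changed genes. Named list genes are up to 4 per class and list with the largest change past the threshold. Gene positions are GENCODE vM21. Intervals between libraries reflect 3 samples a group, counts cover sampling only, and p-values reflect sample-to-sample spread, which may be partly technical. The members and lists were chosen with earlier results of these data known. Same-numbered cko and ctr replicates did not deviate together (correlations between -0.12 and 0.18), but 3 samples a group are too few to exclude pairing.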

Additional observations from a re-analysis of the deposited data

Results flagged for a closer look

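Hsph1 was flagged because the difference between cko and ctr was unequal among the 6 tested classes in the joint fit (edgeR adjusted p = 0.0201), with its smallest change in NK cells (log2 -0.34, all 3 cko sums not below all 3 ctr sums) and its largest in monocytes and macrophages (-1.27, 3 of 3 cko sums below 3 of 3 ctr sums). In NK cells the estimate turned to 0.18 when cells were classed by marker gates. In the joint fit 19.0% of 12542 genes passed, and no member passed with those gates. None passed either without cko replicate 1 or 3, without ctr replicate 2 or 3, or with cko replicates 1 and 3 added together. Groups of 3 libraries are too small for a check of single outlying libraries.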

How the results depend on the processing

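Of 828 values of single members under alternatives, 716 kept direction and side of the threshold, 48 lost the call, 40 gained one and 24 changed sign. Of 552 values for Hspa1a, Hspa1b, Dnajb1, Hsp90aa1, Hsph1 and Hspe1, 2 changed sign, both for Hsph1 in NK cells. The cause was not tested for any change. The main fits called 686 genes in Treg, 33 in conventional CD4 T, 140 in CD8 T and 127 in NK cells. They called 2593 genes in monocytes and macrophages, 1198 in cDC and 2380 in the joint test. Below, where a count of members has no count of genes beside it, the gene count stayed near that of the main fit.

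With DESeq2's size factors in edgeR (RLE), 0 members and 18 genes were called in conventional CD4 T cells. With no filter on low counts it was 2 members and 1253 genes in Treg, 1 and 240 in conventional CD4 T, 222 genes in CD8 T, 3 and 536 in NK cells, 3 members in monocytes and macrophages and 2 members in the joint test. DESeq2 called 5 members in Treg, 5 members and 90 genes in conventional CD4 T and 3 and 453 in CD8 T cells. With marker gates in place of clusters, 2 members and 144 genes were called in Treg, 0 and 11 in conventional CD4 T, 266 genes in CD8 T, 1 and 664 in NK cells, 0 and 0 in cDC, and 0 and 1016 in the joint test. The cDC gate took only cells without a Csf1r or C1qa UMI. It held 39 to 62 cells per cko library and 94 to 132 per ctr library. With members allowed among the variable genes, 0 members and 2 genes were called in conventional CD4 T cells and 352 genes in cDC. In the largest cluster of each class alone, 434 genes were called in conventional CD4 T, 2 members and 854 genes in CD8 T, 275 genes in NK cells and 1065 in monocytes and macrophages.

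Adding cko replicates 1 and 3 together gave 0 members and 372 genes in Treg, 0 and 5 in conventional CD4 T, 0 and 5 in CD8 T, 0 and 31 in NK cells, 1514 genes in monocytes and macrophages and 443 in cDC. Chosen after seeing the data, the same addition gave 0 members and 1208 genes in the joint test, and naming low-UMI clusters by their markers gave 3 members in Treg and 1 member and 1350 genes in NK cells.

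The labels do not say whether the replicate numbers pair cko with ctr samples. A fit with the replicate block called 5 members in Treg and 1 in NK cells, and 86 genes in CD8 T cells. Gene counts in Treg and NK cells stayed near the 686 and 127 of the main fits. In cDC the block fit gave a Dnaja1 change of 0.028.

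Leaving out 1 library at a time, members called ranged over 0 to 4 in Treg, 0 to 4 in conventional CD4 T, 0 to 0 in CD8 T and in NK cells, 4 to 6 in monocytes and macrophages, 4 to 7 in cDC and 0 to 4 in the joint test. Genes called ranged over 316 to 676 in Treg, 3 to 164 in conventional CD4 T, 4 to 807 in CD8 T, 16 to 229 in NK cells, 1262 to 2776 in monocytes and macrophages, 293 to 1755 in cDC and 1047 to 2725 in the joint test. Log2 changes that crossed 0 ranged over -0.11 to 0.29 (Dnaja1), -0.39 to 0.11 (Hspd1) and -0.24 to 0.035 (Hspa8) in Treg, -0.21 to 0.24 (Dnaja1) in conventional CD4 T, -0.23 to 0.14 (Hspd1) in CD8 T, -0.061 to 0.21 (Dnaja1) in NK cells, -0.20 to 0.10 (Dnaja1) in monocytes and macrophages, and -0.26 to 0.27 (Dnaja1) and -0.13 to 0.12 (Hspa8) in cDC.

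Other changes of sign were Hspd1 in Treg (0.23) and Hsph1 in NK cells (0.18) with gates, Hsph1 in NK cells (0.10) with low-UMI clusters named, Dnaja1 (0.19) and Hspa8 (0.014) in conventional CD4 T and Dnaja1 in NK cells (-0.016) in the largest cluster, Hspd1 in CD8 T cells with cko replicates 1 and 3 added together (0.087), Dnaja1 in cDC with gates (0.15), and, with members allowed among the variable genes, Dnaja1 in monocytes and macrophages (0.016) and in cDC (0.05) and Hspa8 in cDC (0.13). Keeping cells under 5% mitochondrial counts did not move these counts beyond that range.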
